A study of Mus musculus with 3 samples.

Results

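The Schlafen genes are a family of interferon-inducible genes that was first described in developing thymocytes, and the members analysed here are Slfn1, Slfn2, Slfn3, Slfn4, Slfn5, Slfn8 and Slfn9. They were matched by symbol and chosen with earlier results of these data known. They are 7 of the 55536 annotated genes and of the 22015 nuclear protein-coding genes in the data. The cells were macrophages grown from bone marrow of C57BL/6J mice. They had received Lipid A, the part of bacterial endotoxin that binds Toll-like receptor 4, at 100 ng/ml for 12 hours, then a washout of 12 hours, and then Lipid A again at 100 ng/ml for 25 minutes. Total RNA of the cytosolic fraction was depleted of ribosomal RNA and sequenced from 1 µg in 3 libraries, labelled as biological replicates 1 to 3 of 1 group. The labels give the same donor entry for all 3 libraries and neither sex nor age, so an SD covers the spread between these libraries alone, part or all of which may be technical. With 1 group there was no contrast between conditions, and every value describes the cytosol of restimulated cells.

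Schlafen proteins share an amino-terminal core that binds RNA, and the longer members add a carboxy-terminal region that resembles helicases. The family is usually split by length into short members (Slfn1 and Slfn2), intermediate members (Slfn3 and Slfn4) and long members (Slfn5, Slfn8 and Slfn9). In macrophages, several members are known as targets of type I interferon, which Lipid A induces through Toll-like receptor 4 and the transcription factor IRF3. Interferon beta then acts on the receptor Ifnar1/Ifnar2, the kinases Jak1 and Tyk2, and a transcription factor complex that binds the interferon-stimulated response element.

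All 7 genes lie in 1 cluster on chromosome 11 of mouse build mm10, between position 82951349 and position 83215154 in GENCODE release M21. Among these 7, the long genes come first, with Slfn5 at chr11:82951349-82964840 on the plus strand, Slfn9 at chr11:82978390-82991830 on the minus strand and Slfn8 at chr11:83002158-83020810 on the minus strand. The short genes follow on the plus strand, Slfn2 at chr11:83065112-83070678 and Slfn1 at chr11:83116849-83122670. The intermediate genes come last of the 7 on the same strand, Slfn4 at chr11:83175186-83190216 and Slfn3 at chr11:83191330-83215154.

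A RefSeq promoter (build GRCm38.p6, 250 bases before to 50 bases after a gene's start) was found for each of the 7 members, with 2 promoters for Slfn8. The core of the interferon-stimulated response element, written as GAAA, any 2 bases and GAAA again, was searched on both strands. It was found in the promoters of the 3 long members, Slfn5, Slfn8 and Slfn9, and in 3.44% of 32851 promoters of the same length. The windows are shown because, among the 7 members, the match separates the long ones from the others. Other Schlafen symbols were not looked at for it. Each is written 5′ to 3′ on the gene's own strand with the match in capitals, and in Slfn8 and Slfn9 the match is on the opposite strand.
Slfn5, chr11:82951922-82951981, plus strand: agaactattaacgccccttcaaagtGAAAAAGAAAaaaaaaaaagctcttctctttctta
Slfn8, chr11:83020824-83020883, minus strand: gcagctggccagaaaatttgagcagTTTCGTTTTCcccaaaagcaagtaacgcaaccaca
Slfn9, chr11:82991841-82991900, minus strand: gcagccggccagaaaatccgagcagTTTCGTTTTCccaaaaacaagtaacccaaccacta
In Slfn9 the match covered bases 45 to 36 before the start. In Slfn8 it covered bases 48 to 39 before 1 of the starts and bases 136 to 127 before the other. In Slfn5 it lay farther away, at bases 155 to 146, beside a run of adenines.

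No match to these letters was found in the windows of Slfn1, Slfn2, Slfn3 and Slfn4, which draws nothing about the factor. The longest stretch that these 4 promoters share was 9 bases, ACTTCCTGG, a string that holds the TTCC core known for ETS factors such as Spi1. It was taken from the promoters themselves and so is a description. It was present in 0.843% of the 32851 promoters and in none of the long members. The windows of the 4 genes, with the shared stretch in capitals, are as follows.
Slfn2, chr11:83065032-83065090, plus strand: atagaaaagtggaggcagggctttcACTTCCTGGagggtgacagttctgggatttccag
Slfn1, chr11:83116721-83116779, plus strand: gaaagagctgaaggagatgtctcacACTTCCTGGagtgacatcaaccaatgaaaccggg
Slfn4, chr11:83175088-83175146, plus strand: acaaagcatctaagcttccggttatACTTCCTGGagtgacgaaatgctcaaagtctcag
Slfn3, chr11:83191263-83191321, plus strand: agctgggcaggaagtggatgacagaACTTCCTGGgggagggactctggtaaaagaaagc
The stretch began 55 bases before the start in Slfn2, 74 in Slfn1, 73 in Slfn4 and 42 in Slfn3.

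The libraries held 55517261, 21311556 and 45635014 expected counts in replicates 1, 2 and 3, and the share of TPM (transcripts per 1000000, a level per length) in nuclear protein-coding genes was 29.6%, 40.4% and 34.8%. The macrophage label was met by its markers: 10 of 10 listed genes reached 1 TPM in each of the 3 libraries, against 42.1% of nuclear protein-coding genes. The highest were Lyz2 at 3737 ± 895, Mpeg1 at 979 ± 317, Cd68 at 814 ± 139.6 and Adgre1 at 806 ± 217 TPM (SD, n = 3). Of the markers of T cells, B cells, natural killer cells, neutrophils, dendritic cells and fibroblasts, 0 reached 1 TPM in every library. The summed TPM of the 6 neutrophil markers was 0.930, 3.80 and 0.780, most of it from Ngp, and Cd3g, Cd2, Trbc1, Gzma and Ly6g had 0 counts. Replicate 1 held more RNA that is known as nuclear: Malat1 was at 1156, 976 and 246 TPM, Neat1 at 60.6, 46.0 and 26.1 TPM, and Xist at 30.1, 2.27 and 1.01 TPM in replicates 1, 2 and 3.

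All 7 Schlafen genes reached 1 TPM in each of the 3 libraries, against 42.1% of nuclear protein-coding genes. Slfn2, Slfn5 and Slfn8 were among the top 10% of the 9604 protein-coding genes whose mean reached 1 TPM, a group that by its definition holds 10.0% of them. The 7 genes together reached 585, 871 and 898 TPM in replicates 1, 2 and 3, which is 785 ± 173 TPM (SD, n = 3). They took 0.287%, 0.317% and 0.379% of the expected counts of protein-coding genes. The short members held 56.6 ± 3.66% of the family's TPM, the long members 38.9 ± 3.98% and the intermediate members 4.50 ± 0.534%.

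**Figure D1:**
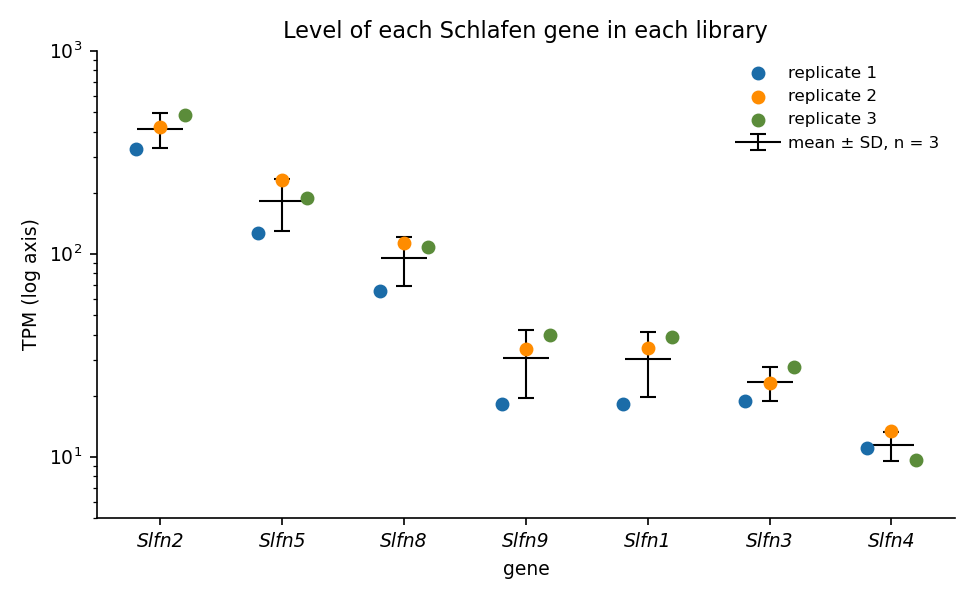
The level of each Schlafen gene in TPM on a log axis, with 1 point per library and the mean ± SD over 3 libraries as black bars. Slfn2 lies between 328 and 485 TPM, above the other genes in each library, and Slfn4 between 9.67 and 13.4 TPM, below them.

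Slfn2 was the most abundant member. It is known to keep T cells and monocytes in quiescence, and to protect transfer RNAs from cleavage. Its level was 328, 422 and 485 TPM in replicates 1, 2 and 3, from 42750, 16210 and 46054 expected counts, or 412 ± 79.2 TPM (SD, n = 3). It ranked 80, 86 and 69 among nuclear protein-coding genes in the 3 libraries. Slfn2 alone held 52.8 ± 3.89% of the family's TPM, and its lowest library was above the highest library of every other member.

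Slfn1, the other short member, is known for slowing the growth of thymocytes and T cells. It was measured at 18.2, 34.3 and 38.8 TPM from 2704, 1503 and 4182 expected counts, or 30.4 ± 10.8 TPM. Replicate 1 was the low library. The ratio of Slfn2 to Slfn1 was 18.0, 12.3 and 12.5 within replicates 1, 2 and 3, so Slfn2 made up most of the short class in these cells.

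Among the long members, Slfn5, an interferon-responsive gene, was the highest, at 126, 231 and 189 TPM from 57716, 27173 and 61594 expected counts (182 ± 52.7 TPM). Slfn8, known for a part in T cell proliferation and in experimental autoimmune encephalomyelitis, was at 65.3, 113 and 108 TPM from 19548, 10023 and 23537 expected counts (95.3 ± 26.1 TPM). Slfn9, its closest relative in coding sequence among the members, was at 18.1, 33.9 and 40.0 TPM from 8209.7, 4735 and 12986 expected counts (30.7 ± 11.3 TPM). Each of the 3 was lowest in replicate 1 on this scale. The ratio of Slfn8 to Slfn9 was 3.62, 3.33 and 2.69 within the libraries, and their ranges did not overlap.

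The intermediate members were the lowest as a class. Slfn3, known from T cells and from the differentiation of gut epithelial cells, was at 18.9, 23.2 and 27.8 TPM from 2858, 1035 and 3041 expected counts (23.3 ± 4.44 TPM). Slfn4, a myeloid gene known to respond to interferon and to be regulated in macrophage activation, was at 11.0, 13.4 and 9.67 TPM from 3597, 1303 and 2256 expected counts (11.4 ± 1.88 TPM). Slfn4 was thus the lowest member per length in each library, and Slfn3 exceeded it 1.72, 1.73 and 2.88 times.

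By mean level the order was Slfn2, Slfn5, Slfn8, Slfn9, Slfn1, Slfn3 and Slfn4. Slfn2 exceeded Slfn5 2.60, 1.83 and 2.57 times within the libraries, Slfn5 exceeded Slfn8 1.93, 2.05 and 1.75 times, and the ranges at both steps did not overlap. The middle of the order was not resolved. The ratio of Slfn9 to Slfn1 was 0.992, 0.987 and 1.03, and that of Slfn1 to Slfn3 was 0.961, 1.48 and 1.39, with overlapping ranges at both steps. These differences between genes were not tested; an exact two-sided sign-flip test over 3 libraries cannot go below p = 0.25.

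The steps from Slfn2 to Slfn5 and from Slfn3 to Slfn4 rest on length. In protein-coding CPM, which are expected counts scaled to 1000000 counts over nuclear protein-coding genes with no division by length, Slfn5 stood at 1204, 1388 and 1519 and Slfn2 at 892, 828 and 1136. Slfn5 therefore gave more reads and a lower TPM than Slfn2 in each library. The effective lengths in replicate 1 were 5052 bases for Slfn5 and 1441 bases for Slfn2. In counts, the ratio of Slfn3 to Slfn4 was 0.795, 0.795 and 1.35, so Slfn4 was the lowest member per length in each library but by counts in replicate 3 alone.

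**Figure D2:**
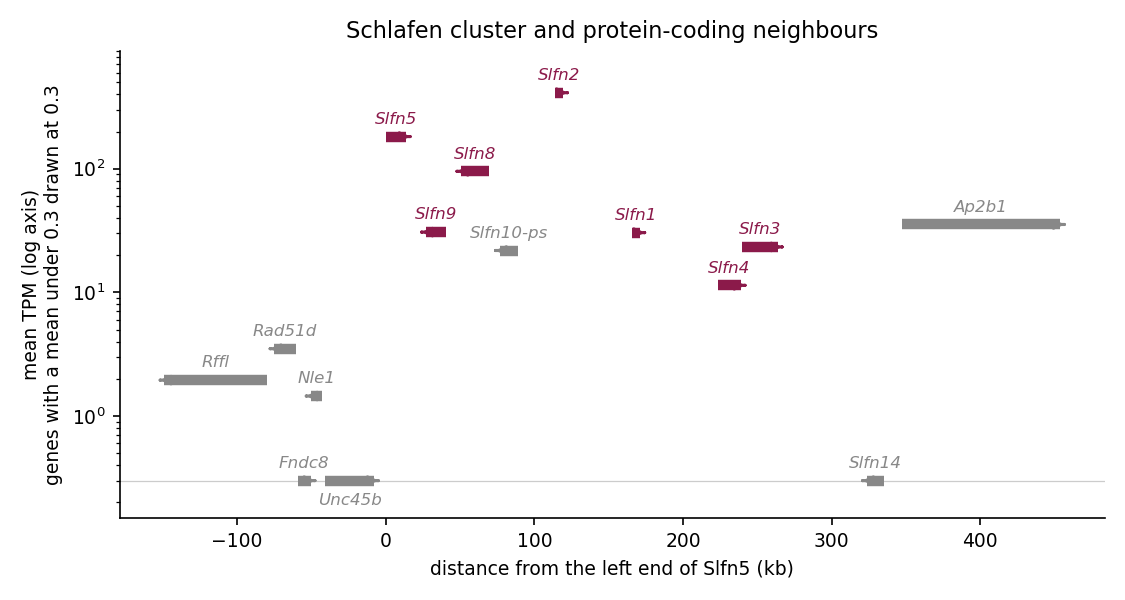
The Schlafen cluster drawn by distance in kb from the left end of Slfn5, with each gene as a bar at its mean TPM on a log axis and an arrow for its strand; members are dark red and other genes grey. Slfn2, at 412 TPM, sits inside the cluster, and apart from Ap2b1 the neighbours drawn outside it are at or below 3.50 TPM.

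Most protein-coding genes around the cluster were low. Within 100 kb of the cluster, Rad51d, a recombination gene, was at 3.50 ± 0.156 TPM, Rffl, a ubiquitin ligase gene, at 1.95 ± 0.314 and Nle1 at 1.45 ± 0.159 TPM (SD, n = 3). Unc45b, a muscle chaperone gene, had 1, 0 and 0 counts, and Fndc8 had 0 counts in every library. Ap2b1, which encodes an adaptor subunit of clathrin-coated vesicles, was the exception at 35.4 ± 9.30 TPM.

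Other Schlafen symbols were measured too. Slfn10-ps, an annotated pseudogene inside the cluster, stood at 15.4, 26.6 and 23.5 TPM (21.8 ± 5.75), near the level of Slfn3. Slfn14, which lies beyond Slfn3 at chr11:83275110-83286726, had 0 counts from the alignment in each library, and 1, 0 and 0 from the reads. A count of 0 allows up to 3 counts in a library, or 0.0626, 0.153 and 0.0740 protein-coding CPM from counting error alone. Slfnl1, on chromosome 4, had 4, 0 and 1 counts. Slfn5os, annotated on the strand opposite to Slfn5, had 10.2, 3.77 and 2.65 expected counts from the alignment and 86.9, 0 and 3.61 from the reads, and whether strand was used in counting is not stated.

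Libraries were compared in protein-coding CPM, as the log2 ratio of a library to the other libraries' mean. On this scale 0 of the 7 members were over 2-fold apart between the highest and the lowest library, against 4.26% of the 9604 genes, and the ratio ran from 1.26 in Slfn5 to 1.87 in Slfn9. On other scales Slfn1 and Slfn9 passed 2-fold. Their ratios were 2.01 and 2.06 with TMM-normalized CPM (4.16% of genes past 2-fold), 2.08 and 2.13 with DESeq2 size factors (4.26%), and 2.12 and 2.21 with TPM as deposited (7.92%). The coefficient of variation of the members lay between 11.5% and 30.5% with a median of 17.4%, beside a median of 12.3% over the 9604 genes. Counting error alone, with reads taken as independent, would give from 0.607% in Slfn5 to 3.11% in Slfn3 in the library with the fewest counts.

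Slfn9 and Slfn1 varied most and did so in parallel. Slfn9 was at 171, 242 and 320.2 protein-coding CPM, with log2 ratios of -0.71, -0.02 and 0.63. Slfn1 was at 56.4, 76.8 and 103, with log2 ratios of -0.67, -0.05 and 0.63. In both genes replicate 1 was the low library and replicate 3 the high one. After centring, the root mean square distance between the 2 profiles was 0.0222 on the log2 scale.

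Slfn5 and Slfn8 showed the same order of libraries with a smaller spread. Slfn5 had log2 ratios of -0.27, 0.03 and 0.23. Slfn8 stood at 408, 512 and 580.4 protein-coding CPM, with log2 ratios of -0.42, 0.05 and 0.34. Slfn2 and Slfn3 instead had their lowest library in replicate 2. Their log2 ratios were -0.14, -0.29 and 0.40 for Slfn2 and -0.10, -0.35 and 0.41 for Slfn3, which stood at 59.6, 52.9 and 75.0 protein-coding CPM. With DESeq2 size factors the lowest library of Slfn2 was replicate 1.

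Slfn4 went the other way. It stood at 75.0, 66.6 and 55.6 protein-coding CPM, with log2 ratios of 0.30, 0.03 and -0.35, highest in replicate 1 and lowest in replicate 3. Its profile was 0.313 to 0.544 away from those of the other members, whose distances among themselves were 0.0222 to 0.296.

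Replicate 3 was the highest library for 6 of the 7 members, against 22.3% of all genes, and above the mean of the others for the same 6 members, against 35.6%. Replicate 1 was above it for 1 member, Slfn4, against 67.2%, and was the lowest library for 4 of the 7, Slfn1, Slfn5, Slfn8 and Slfn9, against 18.0%. The median log2 ratio of the members was -0.27, -0.02 and 0.40, and that of all 9604 genes 0.09, -0.02 and -0.09. The count of 6 was also found with TMM-normalized CPM, where replicate 3 was highest for 35.2% of all genes, with DESeq2 size factors (39.7%) and with the counts made from the reads (22.1%), so the background moved with the scale. With TPM as deposited it was 4, against 17.0% of all genes, with Slfn5 and Slfn8, and also Slfn4, highest in replicate 2. That scale moves all genes, with a median log2 ratio of -0.26, 0.33 and -0.12 for replicates 1, 2 and 3. Replicate 1 was the lowest library for 5 of the 7 members with DESeq2 size factors and for 6 with TPM as deposited. The share of all genes lowest in replicate 1 was not counted on those scales, so these counts have no background beside them.

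**Figure D3:**
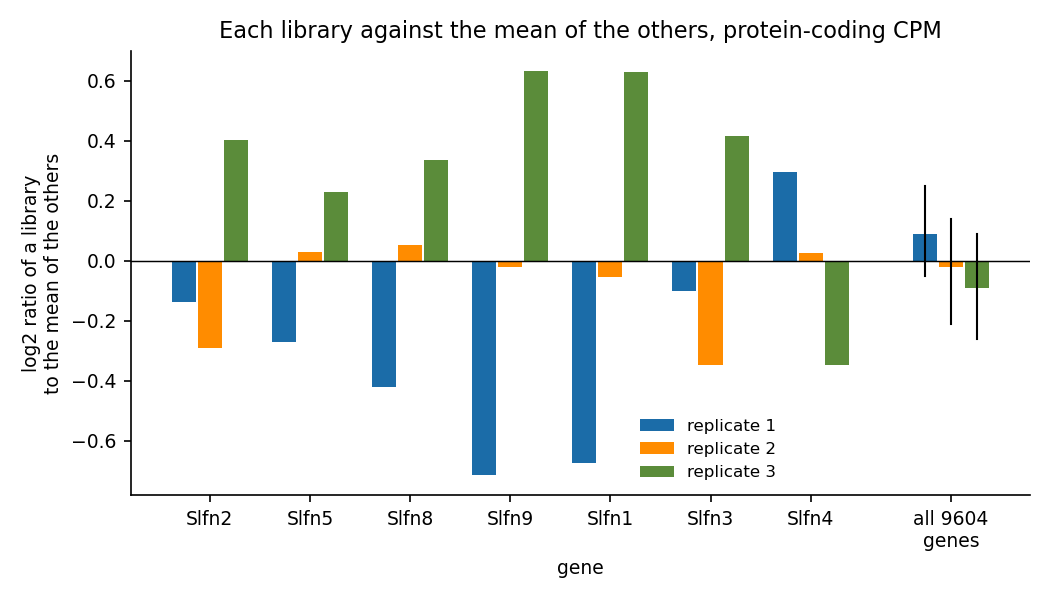
Bars give the log2 ratio of a library to the other libraries' mean in protein-coding CPM for each Schlafen gene, and the median over 9604 genes with their quartiles as lines. Replicate 3 is above 0 for every member except Slfn4, on this scale; with TPM as deposited Slfn4 is highest in replicate 2.

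In protein-coding CPM, other interferon-linked genes showed a like order of libraries. All 22 listed interferon-stimulated genes reached 1 TPM in each library, against 42.1% of nuclear protein-coding genes. Their median was 166, 275 and 241 TPM in replicates 1, 2 and 3 (227 ± 55.9), so in TPM replicate 2 was the highest. The genes with the highest level were Ifit2 at 1119.7 ± 395, Rsad2 at 886 ± 288, Ifit3 at 704 ± 211 and Isg15 at 658 ± 294 TPM. Their median log2 ratio was -0.41, -0.02 and 0.40, in protein-coding CPM, and 20 of the 22 were above the mean of the others in replicate 3, against 35.6% of all genes. In replicate 1, 2 of the 22 were above it, against 67.2% of all genes. These shares of all genes hold in protein-coding CPM. With TMM-normalized CPM the median log2 ratio of all genes was -0.02 in replicate 1 and 0.00 in replicate 3. With DESeq2 size factors it was -0.06 and 0.03. The list was not counted on those scales.

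The interferon signalling list behaved similarly in protein-coding CPM. Of its 16 genes, 15 reached 1 TPM in each library, against 42.1% of nuclear protein-coding genes. The median was 51.4, 73.3 and 72.9 TPM in replicates 1, 2 and 3 (65.9 ± 12.5). In replicate 3, 13 of 16 were above the other libraries' mean in protein-coding CPM, against 35.6% of all genes on that scale. Irf7, an interferon-induced transcription factor, was at 800.5 ± 257 TPM and Stat2, a transcription factor downstream of the receptor, at 163 ± 39.8 TPM. Ptpn6, a phosphatase that restrains the pathway, was at 136 ± 9.20 TPM. Ifnb1, the ligand, was the member under 1 TPM in some libraries, at 0.840, 0.860 and 3.34 TPM from 40, 12 and 119 counts. In protein-coding CPM Ifnb1 was at 0.834, 0.613 and 2.93. Replicate 3, the library with the most Ifnb1, was on that scale the highest for 6 of the 7 Schlafen genes, against 22.3% of all genes. With TPM as deposited it was the highest for 4 of the 7, against 17.0%.

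In the same libraries the nuclear RNAs ran opposite, with a median log2 ratio of 2.35, -1.35 and -2.03 over 3 genes. The part of nuclear RNA, of Ifnb1 and of the library itself in the differences between libraries was not tested. Slfn2 is known to shield transfer RNAs from ribonucleases such as angiogenin. Of the listed genes of transfer RNA cleavage and its control, 5 of 5 reached 1 TPM in each library, against 42.1% of nuclear protein-coding genes. Rnh1, the ribonuclease inhibitor, was at 76.0 ± 16.2 TPM, Rnase4 at 24.9 ± 4.59, the transfer RNA methyltransferase Nsun2 at 13.8 ± 4.11 and Ang, angiogenin itself, at 6.33 ± 1.80 TPM. Slfn2, which ranked 80, 86 and 69 among nuclear protein-coding genes, stood above each of them in every library, which draws nothing about the pathway.

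Over only 3 libraries many genes share a profile with a Schlafen gene. The 5 genes nearest to Slfn2 among 6636 protein-coding genes of at least 5 TPM were C1qa, Bcl6, Tbc1d10a, Tmem219 and S100a11, with distances from 0.00548 to 0.00836, and 388 genes were within 0.1. Genes near Slfn5 included Rnf144b, at a distance of 0.00548, and Pcyt1a, at 0.00740, and 623 genes were within 0.1.

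The 7 genes have 21 annotated isoforms, of which 20 received a count. Slfn1 and Slfn2 have 1 isoform each, with 337 and 378 codons. The other 5 genes have 3 to 6, and their shares differed between the tables made from the alignment and those made from the reads. Where both are given, the alignment comes first.

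Slfn5 and Slfn9 were led by their full-length forms. Slfn5-201, with 884 codons, held 85.0%, 70.8% and 84.1% of the gene's TPM, a mean of 79.9 ± 7.93%, and 66.5 ± 6.97% from the reads. The second, Slfn5-203, is a model annotated as incomplete at its end. It held 19.6 ± 7.61% of the TPM and 4.33 ± 2.02% of the counts, and the model is 1263 bases long against 5979 for Slfn5-201. Slfn9-201, with 910 codons, held 86.1 ± 3.40%, and 77.5 ± 3.56% from the reads.

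Slfn8 was the most divided. Slfn8-201, with 910 codons, held 50.2%, 51.4% and 55.2% of the TPM, and 58.0 ± 0.671% from the reads. A form with 407 codons, Slfn8-203, held 25.8 ± 5.17%, and 18.7 ± 3.29% from the reads. The quantifications differed on the rest: Slfn8-206 held 8.83 ± 7.04% from the alignment and was listed at 0 from the reads, while Slfn8-204, an incomplete model, held 4.72 ± 1.35% and 17.4 ± 1.72%. Both forms of 910 codons together held 60.6 ± 3.06% of Slfn8 TPM, and 64.0 ± 1.87% from the reads.

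Slfn3 and Slfn4 were each shared mainly by a pair of isoforms. Slfn3-201, with 517 codons, held 60.3%, 49.4% and 54.7%, and Slfn3-202, with 640 codons and an incomplete end, 37.9%, 50.1% and 45.2%. From the reads Slfn3-201 held 68.8 ± 2.61%. In Slfn4 both leading isoforms encode 602 codons, and they differed in share by quantification: Slfn4-201 held 63.4 ± 3.15% and 52.0 ± 5.87%, and Slfn4-202 34.8 ± 3.31% and 47.3 ± 5.97%. Together the isoforms of 602 codons held 98.3 ± 1.62% of Slfn4 TPM.

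**Figure D4:**
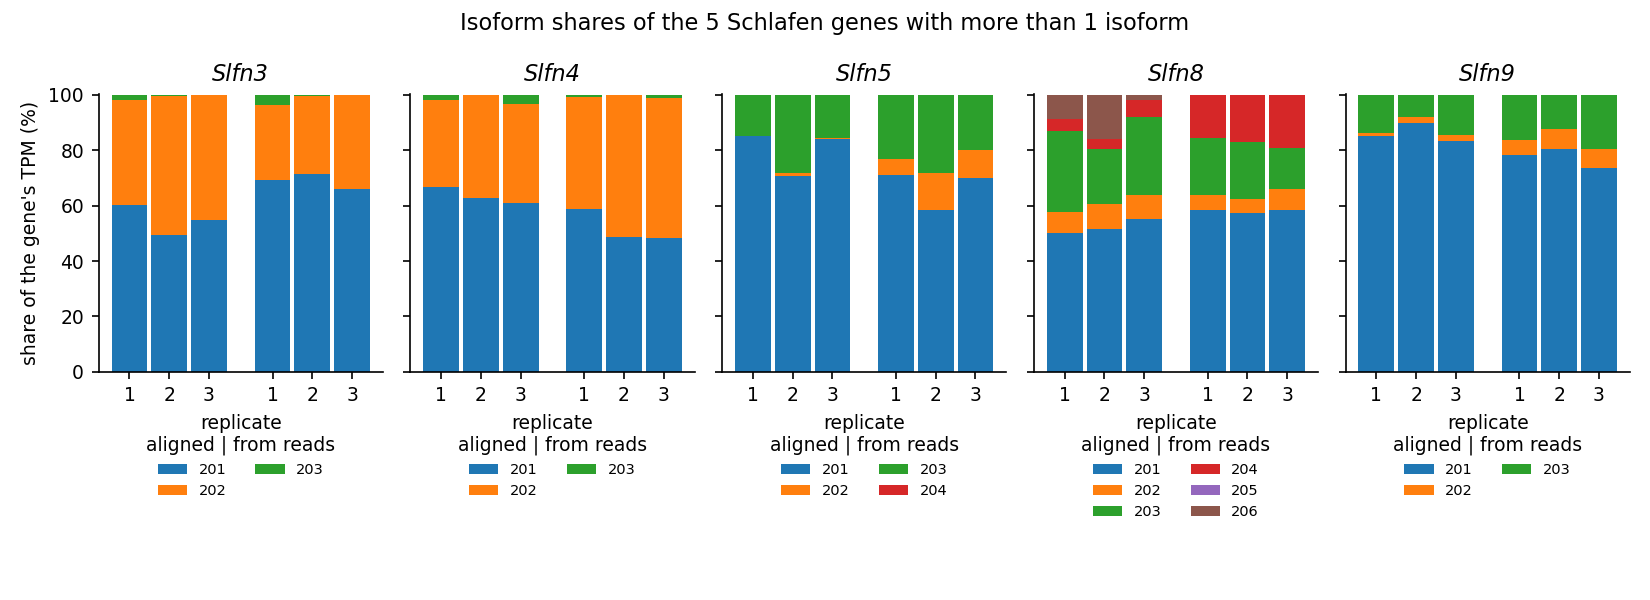
Stacked bars give the share of each gene's TPM in percent for each annotated isoform, by library, with the 3 alignment-based bars left and the 3 read-based bars right in each panel. Slfn5 and Slfn9 are led by isoform 201, and Slfn8-206 appears in the alignment-based bars alone.

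The members are similar enough for reads to be divided between them, which bears on the lower values. The coding sequences of Slfn8 and Slfn9 were 92.7% identical over 2730 bases, and those of Slfn3 and Slfn4 92.9% over 1680 bases. Slfn2 matched Slfn3 at 95.3% and Slfn4 at 94.7%, both over 379 bases, whereas Slfn1 and Slfn2 were 79.1% identical over 507 bases. Slfn5 was the most separate long member, with 66.2% identity to Slfn8 over 1007 bases.

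The share of 50-base words of a gene's transcripts that also occur in another gene, on either strand, was lowest for Slfn1 at 0.606% and Slfn2 at 4.27%. It was 16.0% for Slfn3 and 11.3% for Slfn4, mostly with each other and with the annotated gene Gm11427. It was 14.6% for Slfn8 and 11.9% for Slfn9, mostly with each other and with Slfn10-ps. In Slfn5 it was 11.1%, mostly with Slfn5os on the opposite strand. The share depends on the word length. With words of 31 and 100 bases it was 30.9% and 2.92% for Slfn3, 20.9% and 0.271% for Slfn4, 27.3% and 3.38% for Slfn8, and 24.6% and 3.71% for Slfn9. The levels of Slfn3, Slfn4, Slfn8, Slfn9 and Slfn10-ps are uncertain for this reason, by an amount that was not measured, and that of Slfn5 as far as strand was not used.

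**Figure D5:**
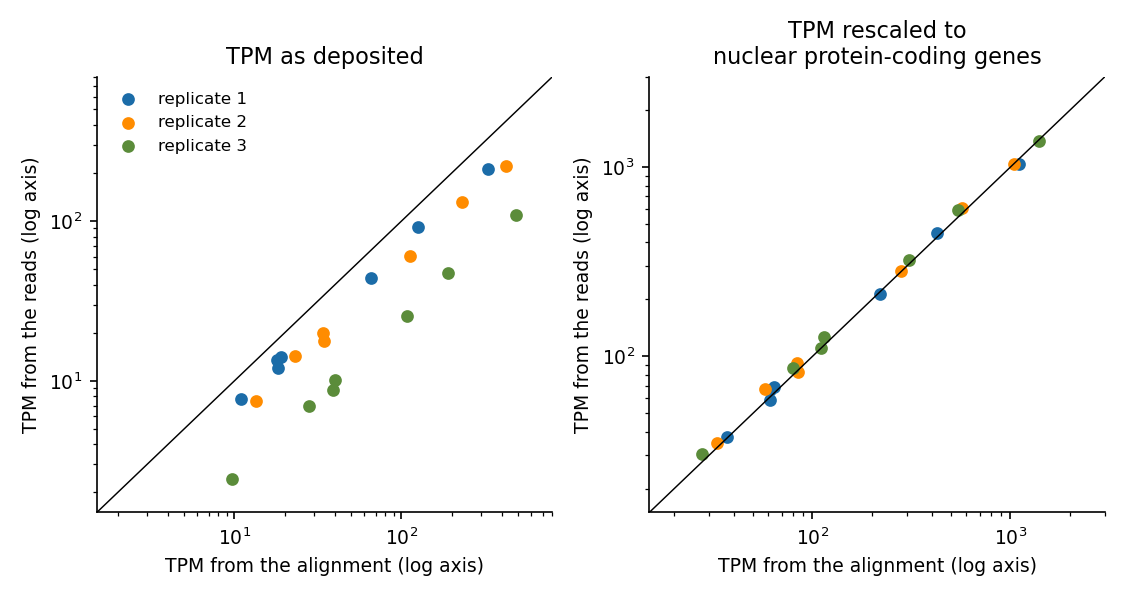
TPM of the 7 Schlafen genes from the alignment against TPM from the reads, on log axes, as deposited at left and rescaled to nuclear protein-coding genes at right; each point is 1 gene in 1 library and the line marks equal values. Replicate 3 falls farthest below the line at left, and at right all points lie close to it.

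The deposited TPM made from the reads was lower for every member. Slfn2, for example, was at 212, 221 and 109 TPM there. Nuclear protein-coding genes held 20.5%, 21.4% and 7.95% of that TPM, so both quantifications were rescaled to these genes. Slfn2 was then at 1106, 1044 and 1396 from the alignment and at 1037, 1034 and 1374 from the reads. The ratio of the rescaled means ran from 0.901 in Slfn3 to 1.03 in Slfn2, and 0 of the 7 members were over 2-fold apart, against 1.27% of 9655 genes. The order of the 7 genes was the same in both quantifications.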

How the data were processed

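The authors deposited, per the file headers, a gene table and a transcript table for each library with expected counts, TPM and lower and upper bounds of TPM (a signal that is never negative), and a second transcript table with estimated counts and TPM. Per the deposited descriptions, the first pair was made from reads aligned to the transcriptome and the last from the reads, on mm10 with GENCODE M21. The programs are not stated there, and whether strand was used in counting is not stated either. Counts are not normalized, TPM is scaled within each library, and no level is given for the bounds. Of the 21 member values of TPM, 9 lay above the deposited upper bound. The share over all genes was not counted, so this is not a trait of the members.

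Members were matched by symbol to gene identifiers. Members, lists and alternatives were chosen with earlier results of these data known. Levels are deposited TPM. Protein-coding CPM are counts divided by the total over nuclear protein-coding genes, times 1000000. Log2 ratios add an offset of 0.1, which understates differences of low genes, and called means past 2-fold. No test between conditions was possible. Identifiers without annotation held 0.194%, 0.247% and 0.0227% of counts and were left out of gene values. Named were all members, other Slfn symbols, protein-coding genes within 100 kb, the 4 highest genes of each list, and the 5 and 3 genes nearest in profile to the 2 most abundant members; 3 genes named by this rule are not reported here.

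Tools were Python 3.11.15, numpy 2.4.6, pandas 2.3.3, matplotlib 3.10.9, blastn 2.17.0 and, for scaling alternatives, edgeR 4.0.16 and DESeq2 1.42.0 in R 4.3.3 on rounded counts. The ratios and the word search were tested on simulated data.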

Additional observations from a re-analysis of the deposited data

How the results depend on the processing

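All 7 members also reached limits of 0.5 and of 5 TPM in every library. They reached 1 TPM in the tables made from the reads and with each replicate left out. The share of all protein-coding genes was not counted at these settings. All 7 kept their place in the order of levels in the tables made from the reads. In protein-coding CPM, without division by length, 3 kept it. With replicates left out, 5 to 7 kept it, since Slfn1 passed Slfn9 without replicate 3. The number of genes over 2-fold apart between libraries, 409 of 9604, was 158 of 6643 where means reached 5 TPM and 1487 of 12251 with a count in every library, and 187 to 202 with replicates left out, where fewer libraries are compared. The number over 2-fold apart between quantifications, 123 of 9655, was 38 of 6649 with at least 5 TPM and 5198 with TPM as deposited. Of the log2 ratios, 4 changed sign with TPM as deposited: replicate 2 went to 0.27 in Slfn1, 0.05 in Slfn2 and 0.22 in Slfn9, and replicate 1 to -0.07 in Slfn4. In the tables made from the reads, replicate 2 of Slfn4 went from 0.03 to -0.0031. No paired analysis was possible because there is 1 group. Replicate 2 has the fewest counts and the least precision.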
